A study of Homo sapiens and Mus musculus with 92 samples.

Results

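Cells take up, store and export iron with a small set of proteins, and the mRNA levels of 10 of their genes were examined in HEL cells after knockdown (KD) of MLL1 or of AF9. The genes are TFRC, TFR2, STEAP3 and SLC11A2 for uptake, SLC25A37 for import into mitochondria, FTH1 and FTL for storage, SLC40A1 for export, HMOX1 for heme breakdown and IREB2 for regulation. They were taken by gene symbol, and all 10 are among the 28103 genes listed in each of the 2 count tables. HEL is an established human erythroleukemic cell line, labelled human erythroblast. MLL1 is a histone methyltransferase encoded by KMT2A, and AF9, encoded by MLLT3, is a reader of acylated histones. The study asked which genes these proteins regulate.

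In the MLL1 experiment control cells, labelled WT, and MLL1 KD cells had 3 libraries each. The AF9 experiment used control cells of its own, also labelled WT, and had 2 libraries per group. Each knockdown used 1 shRNA, and the methods describe lentiviral delivery with a control shRNA and puromycin selection of pools for the other assays of the study, without naming RNA-seq. Whether the replicates came from separate cultures is not stated, and p values measure only the spread between these libraries, which may be technical. Values are CPM, in which counts are divided by a library size adjusted with TMM factors. TPM, which are also scaled by transcript length, are used for levels compared between genes. Genes were called when the change reached 1.5-fold and its adjusted p value was below 0.05 in the quasi-likelihood test of edgeR, adjusted by Benjamini-Hochberg across every gene tested.

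Transferrin carries iron in the blood, and transferrin receptor takes it into endosomes, where a reductase frees it for transport into the cytosol and on to the mitochondria. Erythroid cells take up iron in large amounts because heme is made in their mitochondria, and what is not used is kept in ferritin or leaves through ferroportin. Iron regulatory proteins bind a hairpin in mRNAs, the iron-responsive element, when iron is scarce. Bound in the 5′ UTR it blocks translation, and bound in the 3′ UTR of TFRC it protects the mRNA from decay.

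These hairpins are shown because they are the sequence feature through which iron acts on several of the 10 mRNAs. The motif searched was C, 5 bases of any kind, CAGTGN and then 5 bases that pair with the 5 after the first C, with GT pairs allowed, on the transcript strand alone. A match with all 5 pairs was found in the UTRs of 140 of 19125 canonical coding transcripts of GENCODE version 44 (0.732%). Among the 10 genes TFRC, FTH1, FTL and SLC40A1 held such a match. SLC11A2 and IREB2 held matches with 4 of 5 pairs, and 4.85% of canonical transcripts held one with 4 or more. The matches are given 5′ to 3′ from hg38 with the loop CAGTG in capitals.
TFRC 3′ UTR, chr3:196050980-196051006, minus strand: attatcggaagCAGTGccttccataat
TFRC 3′ UTR, chr3:196050576-196050602, minus strand: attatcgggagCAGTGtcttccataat
TFRC 3′ UTR, chr3:196050511-196050537, minus strand: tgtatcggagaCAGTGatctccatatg
TFRC 3′ UTR, chr3:196050464-196050490, minus strand: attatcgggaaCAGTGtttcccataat
FTH1 5′ UTR, chr11:61967575-61967601, minus strand: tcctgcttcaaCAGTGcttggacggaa
FTL 5′ UTR, chr19:48965336-48965362, plus strand: tcttgcttcaaCAGTGtttggacggaa
SLC40A1 5′ UTR, chr2:189580662-189580688, minus strand: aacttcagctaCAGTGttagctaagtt
SLC11A2 3′ UTR, chr12:50988270-50988296, minus strand, 4 of 5 pairs: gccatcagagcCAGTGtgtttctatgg
IREB2 3′ UTR, chr15:78500970-78500996, plus strand, 4 of 5 pairs: atttgctttcaCAGTGatgagtgagag
No match with at least 4 pairs was found in the UTRs of TFR2, STEAP3, SLC25A37 or HMOX1, which says only that these letters are not there.

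Total counts were 6966345 to 10380241 per library in the MLL1 experiment and 12278989 to 14232408 in the AF9 experiment. KMT2A was at 1318, 1302 and 1254 CPM in control cells and at 815, 812 and 832 CPM in MLL1 KD cells, which is 63.5% of control. Its log2 fold change of -0.66 had an adjusted p value of 0.0722 without and 2.4e-07 with the replicate number as a block in edgeR's test (5.9e-32 to 0.466 over all alternatives). MLLT3 was at 547 and 527 CPM in control cells and at 107 and 92.5 CPM in AF9 KD cells, which is 18.6% of control. Of 14 erythroid markers 12 had a mean of at least 1 TPM in each group, with GATA1 at 181 to 299 CPM over all libraries, whereas AHSP and SLC4A1 reached at most 0.283 and 0.795 CPM. The summed erythroid markers were lower in KD cells, at 1344 to 1688 CPM in control cells against 1016 to 1264 CPM in MLL1 KD cells and at 10695 to 10749 CPM in control cells against 6958 to 8678 CPM in AF9 KD cells. The list did not move one way. In the AF9 experiment both KD libraries lay above both controls for 7 of the 14 markers (HBA1, HBA2, HBZ, GATA1, KLF1, EPOR and GYPB) and below them for 5, among them HBG1, HBG2 and HBE1. Over all genes tested in that experiment 66% did not overlap. The sum there was mostly HBG1, HBG2 and HBE1, with HBG2 at 2840 to 3539 against 4828 to 4862 CPM, whereas HBA1 was at 181 to 234 against 72 to 115 CPM. After MLL1 KD libraries did not overlap for 17.7% of all genes. Of the markers 5 lay below all controls in all KD libraries (HBG2, HBE1, HBB, HBZ and GATA1) and 0 lay above them. Their part in the results below was not tested, and fewer cells of a type and less RNA per cell cannot be told apart in bulk samples. Of the monocyte and macrophage markers CD14, MARCO and VSIG4 were at 0 in both KD groups and in control cells of the AF9 experiment. Control cells of the MLL1 experiment had at most 0.381, 0.139 and 0.139 CPM of them. The summed 7 markers of that list were 35.1 to 57.2 CPM against 19 to 39.6 CPM in the MLL1 experiment and 131 to 137 CPM against 96.4 to 115 CPM in the AF9 experiment. Most of these sums came from CD68 and LYZ. The summed megakaryocyte markers were 2219 to 2442 CPM against 1840 to 2120 CPM and 1309 to 1442 CPM against 1280 to 1625 CPM. In the MLL1 experiment ITGA2B, the largest part of the sum, fell from 1351 to 1462 CPM to 1051 to 1247 CPM. PF4 rose there from 4.07 to 8.38 CPM to 9.7 to 21.7 CPM, and the other 6 markers overlapped. Granulocyte, lymphoid and hepatocyte markers summed to at most 12.8, 9.38 and 1.09 CPM.

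Replicate 1 of both groups of the MLL1 experiment stood apart from replicates 2 and 3. Relative to their mean, FTH1 was at 57% in replicate 1 of control cells and at 55.8% in replicate 1 of MLL1 KD cells. TFR2 was at 48.7% and 50%, and TFRC was at 136% and 140%. For these 3 genes the gap between replicate 1 and the others was larger than that between MLL1 KD and control cells of the same number, and results of this experiment are therefore also given pair by pair.

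In control cells the levels ran from ferritin at the top to heme oxygenase at the bottom. FTL, the ferritin light chain, was at 2469 ± 77.5 TPM (SD, n = 3) in the MLL1 experiment and at 3595 ± 194 TPM (SD, n = 2) in the AF9 experiment. FTH1, the ferritin heavy chain that oxidises iron for storage, was at 1312 ± 387 TPM (SD, n = 3) and 725 ± 16.4 TPM (SD, n = 2). Both lay above the other 8 genes in every control library. SLC25A37, also called mitoferrin 1, came next with 251 ± 8.81 TPM (SD, n = 3) and 221 ± 10.1 TPM (SD, n = 2). In the MLL1 experiment the ranges of SLC25A37 and TFR2 overlapped, as did those of TFR2 and TFRC. TFRC was at 186 ± 33.7 TPM (SD, n = 3) and 213 ± 4.04 TPM (SD, n = 2), and in the AF9 experiment it did not differ from SLC25A37 beyond their ranges. SLC40A1 was at 136 ± 22.5 TPM (SD, n = 3) and 137 ± 10.8 TPM (SD, n = 2). TFR2 was at 248 ± 89.6 TPM (SD, n = 3) in the MLL1 experiment. In the AF9 experiment TFR2 was at 117 ± 4.68 TPM (SD, n = 2), below SLC40A1 in both control libraries. IREB2, STEAP3 and SLC11A2 lay between 25.2 and 81.7 TPM on average in both experiments, and HMOX1 was lowest at 9.56 ± 0.98 TPM (SD, n = 3) and 6.51 ± 0.775 TPM (SD, n = 2).

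**Figure D1:**
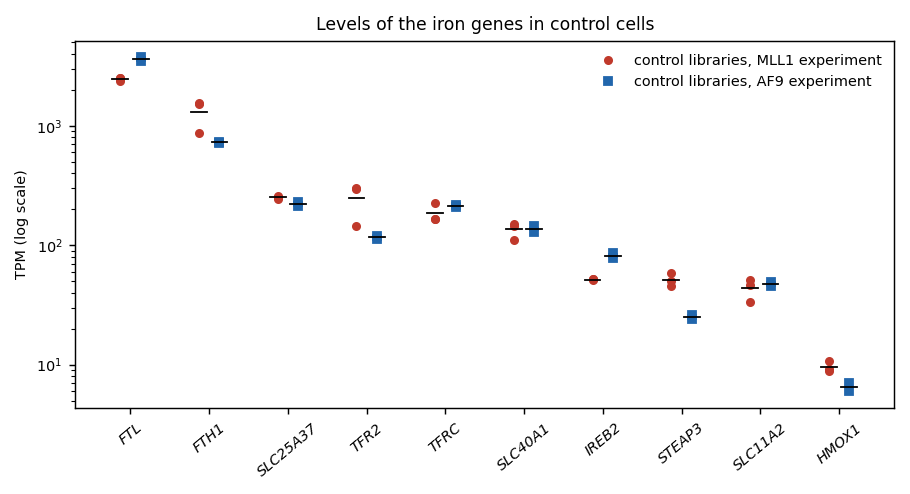
TPM (log scale) of the 10 iron genes in the control libraries of the MLL1 experiment (circles, 3 libraries) and the AF9 experiment (squares, 2 libraries), with a black bar at each mean. FTL was highest and HMOX1 lowest in both experiments.

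None of the 10 genes was called in MLL1 KD cells, where 0.0694% of the 14409 genes tested were called. Before adjustment 1 gene, SLC25A37, had a p value under 0.05, as had 9.97% of all genes. With the replicate number as a block (a paired comparison) no gene of the 10 was called either, against 4.75% of all genes, but SLC25A37 and STEAP3 were lower with adjusted p values under 0.05, a level that 13.6% of all genes passed in either direction. DESeq2 called none of them, against 1.61% of all genes. Libraries of KD and control cells did not overlap for 2 genes, SLC25A37 and IREB2, and for 17.7% of all genes. Among AF9 KD cells 1 of the 10 genes was called higher, STEAP3, against 8.01% of the 13351 genes tested, and none was called lower, against 5.06%. At any fold change 3 genes, TFRC, TFR2 and STEAP3, had an adjusted p value under 0.05 and all were higher, where 28.9% of all genes passed in either direction. Libraries did not overlap for 8 of the 10 genes and for 66% of all genes. The 10 genes had a median log2 fold change of -0.04 after MLL1 KD and of 0.06 after AF9 KD, beside 0.01 over all genes tested in each experiment.

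**Figure D2:**
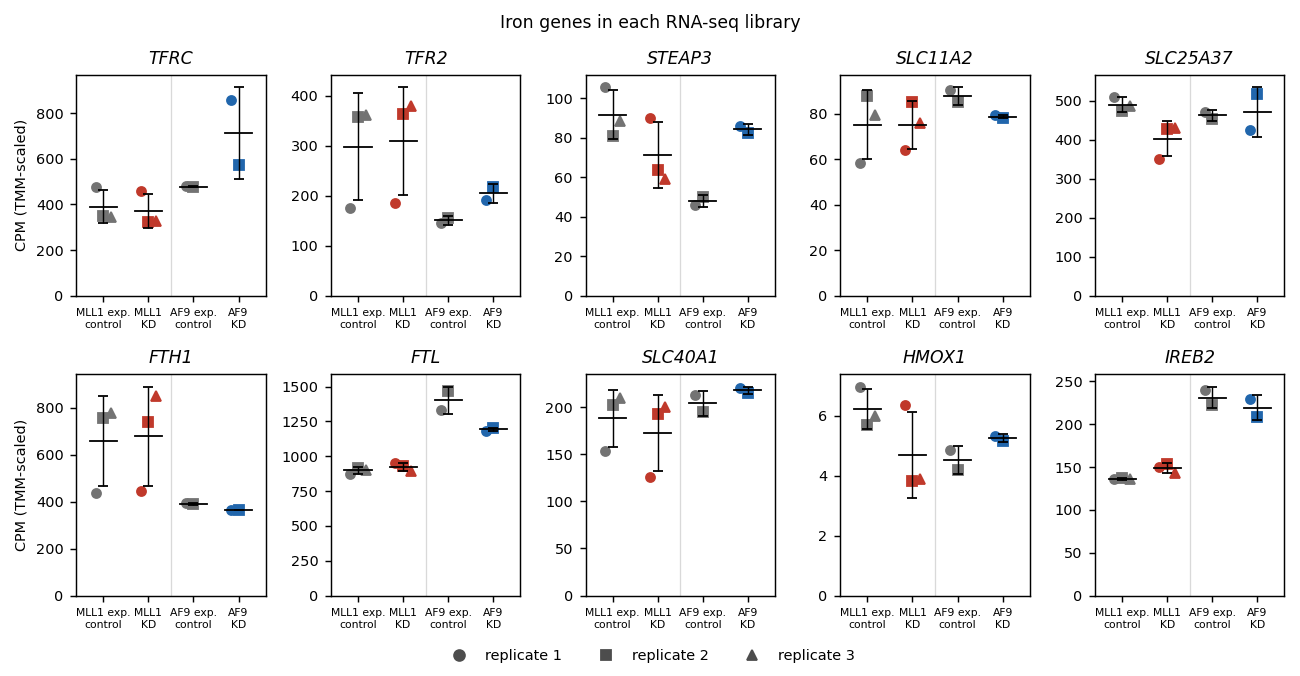
CPM of each iron gene in the 10 libraries, with markers for the replicate number, a bar at the group mean and error bars of 1 SD. STEAP3 and TFRC were higher in both AF9 KD libraries than in both of their controls, and replicate 1 of the MLL1 experiment stood apart for FTH1, TFR2 and TFRC in both groups.

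STEAP3 (ENSG00000115107, chromosome 2 of hg38, 119223831 to 119265652, plus strand) encodes the reductase that converts the iron released from transferrin in erythroid endosomes. It was at 45.9 and 50.2 CPM in control replicates 1 and 2 of the AF9 experiment and at 86.1 and 82.2 CPM in AF9 KD cells. Both KD libraries lay above both controls, and the gap between the groups was larger than that between replicates. The rise was 1.75-fold, or 0.81 as a log2 fold change (standard error 0.10, adjusted p = 1.4e-04 in edgeR's test). STEAP3 was called under all 15 other fits, with adjusted p values from 7.4e-15 to 7.0e-04. Fold changes in the AF9 experiment moved with the GC content of the exons, with a median log2 fold change of -0.18 in genes of at most 40.6% GC and of 0.44 in genes of at least 57.2% GC, against 0.04 and -0.01 in the corresponding genes of the MLL1 experiment. STEAP3 has 56.7% GC, and with offsets that level each library along the GC content of its genes its log2 fold change was 0.59. That is only just above the 1.5-fold change required for a call. GC content offsets called 2 of the 10 genes higher, STEAP3 and TFRC, against 3.7% of all genes, and none lower, against 4.27%.

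In the MLL1 experiment STEAP3 was at 106, 80.9 and 88.5 CPM in control replicates 1, 2 and 3 and at 90.1, 63.8 and 59.1 CPM in MLL1 KD replicates 1, 2 and 3. It was lower in all 3 pairs, by log2 ratios of -0.23, -0.34 and -0.58, although KD replicate 1 lay above control replicates 2 and 3. Without the block the difference of -0.37 on the log2 scale, with a standard error of 0.19, did not pass (adjusted p = 0.599 in edgeR's test). With the replicate block it was -0.38 (standard error 0.10, adjusted p = 0.0123 in the same test, 2.0e-05 to 0.913 over all alternatives), a decrease smaller than the 1.5-fold required for a call. The effects of the 2 knockdowns on STEAP3 differed by 1.17 on the log2 scale (AF9 effect minus MLL1 effect, 95% confidence interval 0.58 to 1.76, adjusted p = 0.0715 in edgeR's test of the difference). Over 21 alternatives this difference lay between 0.92 and 1.38, and its adjusted p value, between 1.8e-05 and 0.393, was under 0.05 in 6 of them, among them the replicate block.

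TFRC (ENSG00000072274, chromosome 3 of hg38, 196012511 to 196082153, minus strand) encodes transferrin receptor 1, and its 3′ UTR holds the 4 hairpins printed above. Its levels in the AF9 experiment were 479 and 476 CPM in control cells and 856 and 572 CPM in AF9 KD cells. Both KD libraries were higher than both controls, but replicate 1 rose by a log2 ratio of 0.84 and replicate 2 by 0.26. The rise was 1.49-fold, just short of a call, or 0.58 on the log2 scale (standard error 0.15, adjusted p = 0.00931 in edgeR's test). It became a call under 6 of 15 other fits, including GC content offsets (0.71), total counts (0.67) and the fit without KD replicate 2 (0.85). Without KD replicate 1 the log2 fold change was 0.26. Adjusted p values ran from 3.0e-12 to 0.142 over the alternatives.

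Control replicates 1, 2 and 3 of the MLL1 experiment had 475, 350 and 347 CPM of TFRC, and the MLL1 KD replicates had 457, 324 and 329 CPM. The KD library was the lower one in every pair, by log2 ratios of -0.05 to -0.11, which is less than the gap between replicate 1 and the others. The log2 fold change of -0.08 (95% confidence interval -0.51 to 0.36) did not pass (adjusted p = 0.949 in edgeR's test). With the block the adjusted p value was 0.479 in the same test, and it lay between 0.22 and 0.997 over the alternatives. The difference of the effects was 0.65 (95% confidence interval -0.03 to 1.32, adjusted p = 0.342 in edgeR's test).

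TFR2 (ENSG00000106327, chromosome 7 of hg38, 100620416 to 100642779, minus strand) encodes transferrin receptor 2, which binds iron-loaded transferrin and, in erythroid cells, associates with the erythropoietin receptor. AF9 KD cells had 192 and 218 CPM, above the 145 and 157 CPM of control cells. TFR2 was thus higher by 0.44 on the log2 scale (standard error 0.10, adjusted p = 0.00477 in edgeR's test). TFR2 has a GC content of 61.8%, the highest of the 10 genes, and with GC content offsets its log2 fold change was -0.03 (adjusted p = 0.836 in the same test, 1.2e-05 to 0.869 over all alternatives), so this rise depended on the scaling. In the MLL1 experiment TFR2 was at 175, 357 and 363 CPM in control cells and at 186, 364 and 380 CPM in MLL1 KD cells. The pairs differed by log2 ratios of 0.03 to 0.09, which is far less than the gap between replicate 1 and replicates 2 and 3.

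SLC11A2 (ENSG00000110911, chromosome 12 of hg38, 50979401 to 51028566, minus strand) encodes DMT1, which carries ferrous iron out of the endosome. It had 90.6 and 85.1 CPM in control cells and 79.4 and 78.2 CPM in AF9 KD cells. Both KD libraries were lower, but the log2 fold change of -0.16 (95% confidence interval -0.36 to 0.05) did not pass (adjusted p = 0.233 in edgeR's test). In the MLL1 experiment the control replicates had 58.5, 87.7 and 79.4 CPM and the MLL1 KD replicates 64, 85.1 and 76.1 CPM. These groups overlapped, with a log2 fold change of -0.00 (95% confidence interval -0.44 to 0.43).

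SLC25A37 (ENSG00000147454) encodes mitoferrin 1, which brings iron into the mitochondria of erythroid cells. Control replicates 1, 2 and 3 of the MLL1 experiment had 510, 473 and 486 CPM, and the MLL1 KD replicates had 350, 426 and 430 CPM. All KD libraries lay below all controls, with the lowest value in replicate 1. Its log2 fold change was -0.28 (standard error 0.12, unadjusted p = 0.0439, adjusted p = 0.481 in edgeR's test). With the replicate block it was -0.29 (adjusted p = 0.0139 in the same test, 0.00667 to 0.879 over all alternatives), which is below the fold change required for a call. In the AF9 experiment its 472 and 452 CPM in control cells and 424 and 516 CPM in AF9 KD cells overlapped, and the log2 fold change was 0.03 (95% confidence interval -0.21 to 0.26). The difference of the 2 effects, 0.30, did not pass its test (adjusted p = 0.482 in edgeR's test).

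**Figure D3:**
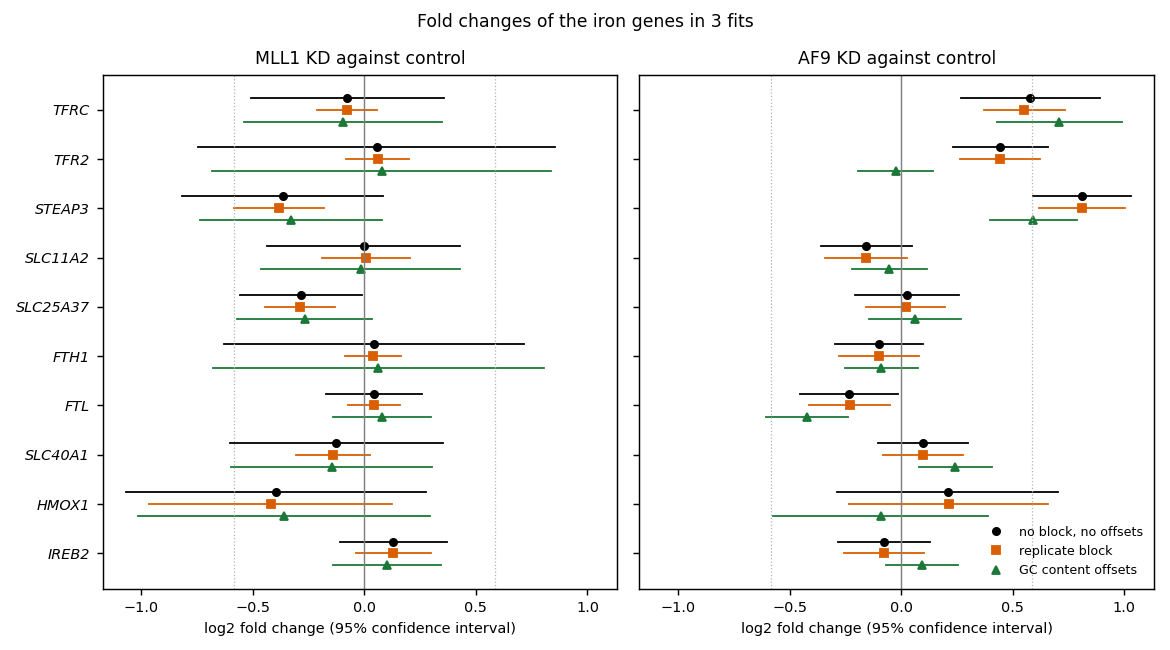
Log2 fold changes of the 10 iron genes with 95% confidence intervals, for MLL1 KD (left) and AF9 KD (right), in the fit without block or offsets (circles), with the replicate block (squares) and with GC content offsets (triangles). Dotted lines mark a fold change of 1.5 in either direction. The intervals of FTH1 and TFR2 in the MLL1 experiment narrowed with the block, and TFR2 in the AF9 experiment moved from 0.44 to -0.03 with GC content offsets.

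The 2 ferritin chains stayed below 1.5-fold in both experiments. FTH1 (ENSG00000167996, chromosome 11 of hg38, 61959718 to 61967634, minus strand) had 438, 758 and 780 CPM in control cells of the MLL1 experiment and 444, 740 and 852 CPM in MLL1 KD cells. Pair by pair the log2 ratios were 0.02, -0.03 and 0.13, and the log2 fold change of 0.04 had a 95% confidence interval of -0.63 to 0.72 without the block. With the block its standard error fell from 0.29 to 0.06. FTH1 in the AF9 experiment was at 393 and 388 CPM in control cells and at 366 and 364 CPM in AF9 KD cells. The replicates were close and the KD libraries were lower, but the log2 fold change of -0.10 did not pass the test (adjusted p = 0.453 in edgeR's test).

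FTL (ENSG00000087086, chromosome 19 of hg38, 48965309 to 48966879, plus strand) had 872, 919 and 905 CPM in control replicates of the MLL1 experiment and 952, 929 and 893 CPM in MLL1 KD cells, groups that overlapped. Its log2 fold change was 0.04 (95% confidence interval -0.17 to 0.26). In the AF9 experiment the levels were 1334 and 1470 CPM in control cells and 1185 and 1202 CPM in AF9 KD cells. Both KD libraries were lower, with a log2 fold change of -0.23 that did not pass (standard error 0.10, adjusted p = 0.103 in edgeR's test). With GC content offsets the log2 fold change of FTL was -0.42 (adjusted p = 0.00375 in the same test, 4.9e-05 to 0.638 over all alternatives), still less than 1.5-fold. The ferritin genes have many processed copies. Of the 31-base stretches of the canonical FTH1 transcript 51.9% occur in transcripts of 16 other genes, and of those of FTL 33.5% occur in 6 others, so how reads were shared between them is uncertain. There are 2 annotated FTH1 pseudogenes among the counted genes. They held 0.191% to 1.74% of the FTH1 count in the MLL1 experiment and 4.06% to 4.36% in the AF9 experiment. Being fewer than the 16 genes that share sequence with FTH1, they do not bound the reads shared with all of these.

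SLC40A1 (ENSG00000138449, chromosome 2 of hg38, 189560590 to 189583758, minus strand) encodes ferroportin, the only known cellular iron exporter. It was at 213 and 195 CPM in control cells and at 221 and 215 CPM in AF9 KD cells. The KD libraries were slightly higher, and the log2 fold change of 0.10 did not pass (adjusted p = 0.475 in edgeR's test). GC content offsets gave 0.24 (adjusted p = 0.0318 in the same test, 0.0248 to 0.927 over all alternatives). In the MLL1 experiment SLC40A1 had 154, 202 and 209 CPM in control cells and 126, 192 and 200 CPM in MLL1 KD cells. Each KD library was below its control, by log2 ratios of -0.28, -0.07 and -0.07, but the groups overlapped. That gave a log2 fold change of -0.13 (adjusted p = 0.914 without and 0.277 with the block in edgeR's test, 0.197 to 0.999 over all alternatives).

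HMOX1 (ENSG00000100292, chromosome 22 of hg38, 35380361 to 35394214, plus strand) encodes heme oxygenase 1, which releases iron from heme. It rested on 27 to 69 counts per library, the fewest of the 10 genes. Control replicates of the MLL1 experiment had 6.96, 5.69 and 5.97 CPM and MLL1 KD replicates 6.36, 3.82 and 3.88 CPM. Its log2 fold change of -0.40 had a 95% confidence interval of -1.07 to 0.28 (adjusted p = 0.736 in edgeR's test). In the AF9 experiment the values were 4.86 and 4.19 CPM in control cells and 5.34 and 5.16 CPM in AF9 KD cells, a log2 fold change of 0.21 (95% confidence interval -0.29 to 0.70).

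IREB2 (ENSG00000136381, chromosome 15 of hg38, 78437431 to 78501453, plus strand) encodes iron regulatory protein 2, which binds the hairpins. It was steady in control cells of the MLL1 experiment at 136, 137 and 136 CPM, and MLL1 KD cells had 150, 153 and 143 CPM. All KD libraries were higher, but the log2 fold change of 0.13 (95% confidence interval -0.11 to 0.37) did not pass (adjusted p = 0.769 in edgeR's test). For AF9 KD 240 and 222 CPM in control cells and 230 and 209 CPM in AF9 KD cells overlapped. That log2 fold change was -0.08, and 0.09 with GC content offsets.

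Tested directly, the effects of AF9 KD and MLL1 KD differed with an adjusted p value under 0.05 for none of the 10 genes in edgeR's test, against 0.817% of the 14445 genes tested in all 10 libraries. Before adjustment 1 gene, STEAP3, had a p value under 0.05, against 15.8% of all genes, and it also passed with DESeq2, against 5.62%. With the replicate number within each experiment as a block, 4 of the 10 passed, against 21.1% of all genes. TFRC (0.62), TFR2 (0.37) and STEAP3 (1.18) were higher after AF9 KD than after MLL1 KD on the log2 scale, and FTL (-0.28) was lower. With GC content offsets beside the block 4 genes passed as well, against 12.8% of all genes, but they were not the same 4. TFRC (0.77), STEAP3 (0.93) and FTL (-0.51) passed again and SLC40A1 (0.39) was added, while TFR2 turned to -0.08 (adjusted p = 0.701 in edgeR's test, 0.0204 to 1 over all alternatives). The experiments differ in depth, in erythroid marker level and in the GC trend of their fold changes as well as in the targeted gene. They also differ in the strength of the knockdown, with KMT2A at 63.5% and MLLT3 at 18.6% of control. In AF9 KD cells KMT2A was at 80.2% of control (adjusted p = 0.0199 without and 0.0667 with GC content offsets in edgeR's test). In MLL1 KD cells MLLT3 was at 82.2% of control (adjusted p = 0.613 without and 0.0171 with the block in the same test). These differences between the experiments cannot be told apart in this contrast.

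Besides the 10 genes, 94 genes of iron metabolism on 8 lists were examined, of which 74 were tested in each experiment. In AF9 KD cells 7 of the 74 were called higher and 5 lower, with a median log2 fold change of 0.06. Over all genes 1069 were higher and 675 lower, which is 8.01% and 5.06% of the 13351 genes tested. With total counts in place of TMM factors these became 1416 and 440. With GC content offsets they became 494 and 570 (3.7% and 4.27% of the genes tested). For the iron lists GC content offsets gave 2 higher and 3 lower. MELTF, ABCG2, ERFE and SLC7A11 were called in both fits, and LCN2, the siderophore-binding lipocalin, was called with the offsets alone (-0.75, and -0.48 without them), and was named after its values were seen. None of the 74 was called by edgeR in MLL1 KD cells, where their median was 0.03, although 12 had an unadjusted p value under 0.05, DESeq2 called 3 and the block called 1 higher and 3 lower. Over all genes the shares were 9.97%, 1.61% and 4.75%.

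Of the calls in AF9 KD cells, 4 concern iron delivery, the hepcidin axis and ferritin. Over all genes 8.01% were called higher and 5.06% lower. NCOA4, the receptor that takes ferritin to lysosomes to free its iron, fell from 323 ± 32 to 210 ± 21.2 CPM (SD, n = 2), by a log2 ratio of -0.62, and was the only call among 5 tested genes of ferritin loading and turnover. RAB5A, a GTPase of early endosomes, fell from 70.7 ± 2.72 to 45 ± 0.798 CPM (SD, n = 2), the only call among 9 tested genes of transferrin receptor endocytosis and recycling. ERFE, the erythroid hormone that lowers hepcidin, fell from 16.9 ± 1.34 to 11 ± 2.27 CPM (SD, n = 2), and hepcidin itself (HAMP) had 0 counts in all 10 libraries. MELTF, a membrane-bound relative of transferrin, rose from 7.01 ± 1.71 to 12.3 ± 4.65 CPM (SD, n = 2), the only call among 9 genes of other uptake and reduction. With GC content offsets ERFE (-1.21) and MELTF (0.67) were still called, while NCOA4 and RAB5A, each at -0.51, were not. The calls of NCOA4, ERFE and MELTF were each lost when certain single libraries were left out. NCOA4 was at -0.52 on the log2 scale without control replicate 1 or KD replicate 2, ERFE at -0.54 without control replicate 2 and -0.42 without KD replicate 1, and MELTF at 0.59 without control replicate 1 and 0.38 without KD replicate 2, none of them a call.

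In the mitochondrial list, which holds 19 tested genes of iron and iron-sulfur cluster assembly, 3 rose and 1 fell after AF9 KD. The shares called over all genes were 8.01% higher and 5.06% lower. FDXR, which passes electrons to ferredoxin, rose from 8.58 ± 0.327 to 16.6 ± 0.25 CPM (SD, n = 2), by 0.96 on the log2 scale. ABCB8 (0.76), a mitochondrial transporter, and FDX2 (0.65), the ferredoxin of cluster assembly, were the others, and ISCA2 (-0.59), an assembly factor, fell. None of the 4 was called with GC content offsets, and all but FDXR lost the call without a single library, ABCB8 (0.59) without control replicate 1, FDX2 without control replicate 1 (0.60) or KD replicate 2 (0.55) and ISCA2 without replicate 2 of either group (-0.47 and -0.39). Of 8 tested genes of heme degradation and transport BLVRB (0.77), a biliverdin reductase, and ABCG2 (1.22), an exporter of porphyrins, rose. BLVRB was at 115 ± 13.2 and 196 ± 5.29 CPM (SD, n = 2), whereas ABCG2 was low at 1.33 ± 0.69 and 3.17 ± 1.53 CPM (SD, n = 2). BLVRB was not called with GC content offsets, at 0.43, and ABCG2 was not called without control replicate 2 (0.80) or KD replicate 1 (0.63).

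NRF2 and BACH1 are the factors that activate and repress HMOX1 and the ferritin genes. In their list 1 of 12 tested genes rose and 1 fell after AF9 KD, against 8.01% and 5.06% of all genes. SLC7A11, the cystine importer, fell from 46.8 ± 2.92 to 18.5 ± 5.48 CPM (SD, n = 2), which is -1.34 on the log2 scale and -1.10 with GC content offsets. MAFK, a small MAF partner of both factors, rose from 4.05 ± 0.799 to 7.84 ± 0.831 CPM (SD, n = 2), by 0.96 on the log2 scale, which was 0.36 with GC content offsets and 0.76 without control replicate 1, neither of them a call. BACH1 itself had a log2 fold change of -0.50 (adjusted p = 0.00142 in edgeR's test), under the fold change for a call, and was named after its values were seen.

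The last list holds 7 tested genes of the iron regulatory protein system and of other mRNAs for which the hairpin has been described. The search above found a match with all 5 pairs in ALAS2 and none in FBXL5, EPAS1 or CDC42BPA. None of the 7 was called by edgeR in either experiment without the block, although 2 and 3 of them, for MLL1 KD and AF9 KD, had an unadjusted p value under 0.05, against 9.97% and 40.6% of all genes, and DESeq2 called ALAS2 and EPAS1 after MLL1 KD. With the block ALAS2, the first enzyme of heme synthesis in erythroid cells, was called lower in MLL1 KD cells, from 32.2, 40 and 32.9 CPM in control replicates to 6.36, 11.7 and 13.2 CPM. All KD libraries lay below all controls, with -1.75 on the log2 scale without the block (adjusted p = 0.1 in edgeR's test) and -1.78 with it (adjusted p = 2.0e-06 in the same test, 1.4e-16 to 0.472 over all alternatives). EPAS1, which encodes the hypoxia factor HIF-2 alpha, was called higher with the block, from 7.29 ± 1.88 to 19.2 ± 6.73 CPM (SD, n = 3), or by 1.37 on the log2 scale. The other calls with the block were SLC39A8, a metal importer that fell from 104 ± 11 to 65.3 ± 9.28 CPM (SD, n = 3), and FDXR, which fell from 27.7 ± 1.14 to 17.5 ± 5.99 CPM (SD, n = 3).

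**Figure D4:**
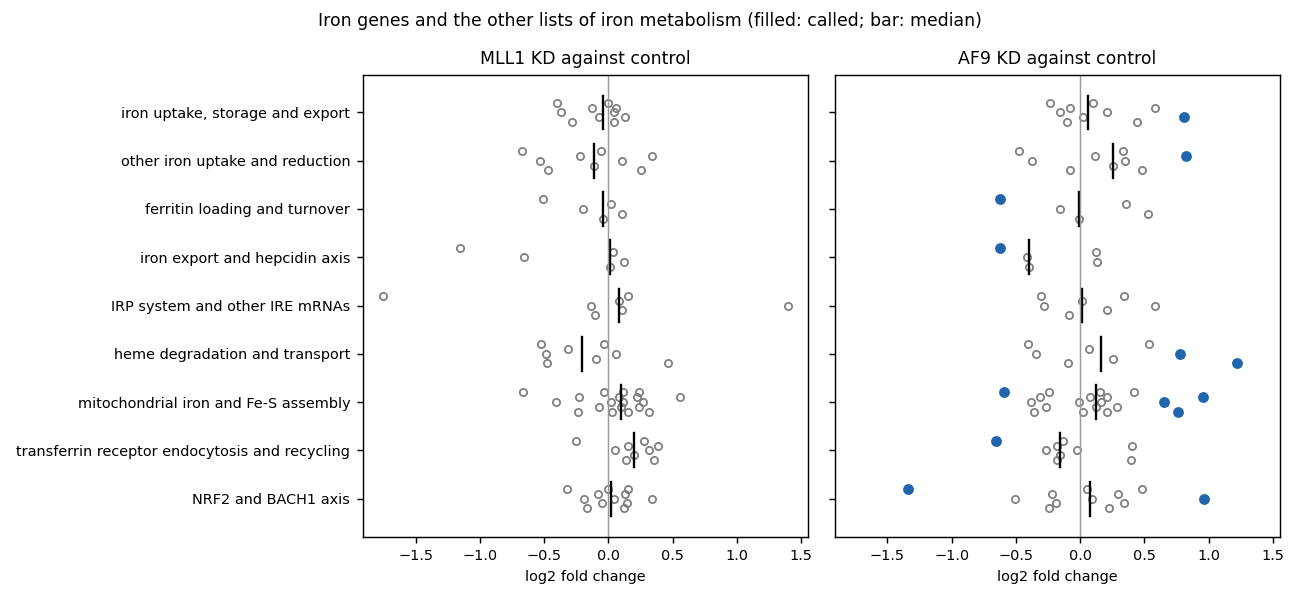
Log2 fold changes without block or offsets of the 10 iron genes (top) and of the tested genes of 8 other lists of iron metabolism, 1 circle per gene, with called genes filled and a bar at the median of each list. No gene was called in MLL1 KD cells, and 7 genes of the other lists were called higher and 5 lower in AF9 KD cells, beside STEAP3.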

How the data were processed

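RNA was measured by poly(A)-selected, strand-specific RNA-seq in 10 libraries of HEL cells. CUT&Tag and PRO-seq were not analysed here. The authors filtered reads with fastp version 0.13.1, mapped them to hg38 with HISAT2 version 2.1.0 and counted them with featureCounts version 1.6.1, and the deposited values are raw counts per gene symbol, not normalized. The annotation behind the symbols is not given in the sources used here.

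Samples were grouped by their labels. Of the 28103 symbols 25237 matched GENCODE version 44 directly, 716 through a RefSeq synonym and 2150 did not (92.3% matched). Counts were scaled with TMM factors and tested with edgeR version 4.0.16 (R version 4.3.3, glmQLFTest, two-sided), MLL1 and AF9 experiments separately, and together for the difference of their effects. The tests covered genes that averaged 1 TPM or more over merged exons, or 1 CPM or more where no length was known. Levels in TPM used canonical transcripts. Intervals are 95% confidence intervals of the fit. The edgeR fit without block or offsets was also run on simulated counts. These held neither the shift of replicate 1 nor the GC trend, so they do not test how either bears on the results.

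Alternatives were DESeq2 version 1.42.0 on the same or all genes, its size factors, total counts, other filters on low counts, other fold change thresholds, offsets from lowess trends (span 0.3) with GC content or length, a block for the replicate number, and leaving out each library in turn. Replicates 2 and 3 alone were added after seeing the data. Deviations from the group means of same-numbered libraries correlated with 0.647, 0.326 and 0.351 across genes in the MLL1 experiment, all above the 0.1 set for treating numbers as pairs. Controls 2 and 3 correlated as closely with KD 3 and 2 (0.368 and 0.359), so the numbers separate replicate 1 from the others but do not tell replicates 2 and 3 apart.

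Named genes were the 10 iron genes, the targeted genes, ferritin pseudogenes by their sum and, of the other lists, called genes (at most 4 per list and comparison, by size of change) or, with none called, the gene with the highest mean TPM. The genes and lists were chosen with earlier results of these data known.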

Additional observations from a re-analysis of the deposited data

Results flagged for a closer look

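One gene of the iron lists was set apart because its effects differed between the knockdowns in a test of the difference itself, which 0.817% of all 14445 genes tested passed. ALAS2 was lower in MLL1 KD cells than in their controls and higher in AF9 KD cells (165 ± 0.569 against 248 ± 14.4 CPM, SD, n = 2). The fall was not a call without the block, and the rise of 0.58 on the log2 scale was just short of a call. The AF9 effect minus the MLL1 effect was 2.33 on the log2 scale (95% confidence interval 1.59 to 3.07, adjusted p = 0.0237 in edgeR's test of the difference). The difference was positive under all 21 alternatives, from 2.06 to 2.55, and its adjusted p value, from 2.2e-08 to 0.248, was under 0.05 in 13 of them. ALAS2 was at 165 and 166 CPM in control cells of the AF9 experiment and at 32.2 to 40 CPM in those of the MLL1 experiment, beside summed erythroid markers of 10695 to 10749 and of 1344 to 1688 CPM, whose part in this difference was not tested.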

How the results depend on the processing

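The count of 0 called iron genes in MLL1 KD cells held in every alternative, replicates 2 and 3 alone included. In AF9 KD cells STEAP3 stayed called in all fits and was not called only when changes had to reach 2-fold (0 genes). The count was 2, with TFRC added, with total counts, a mean TPM of at least 5, GC content offsets (alone or with the block) and length offsets, 3 without a fold change threshold, and 1 to 2 with a library left out. The difference of the effects passed for 1 gene with DESeq2 (on the same or all genes) and with total counts, for 4 with the replicate block and for 4, of which 3 were the same, with GC content offsets as well, and for 0 to 1 with a library left out. For the other iron lists in MLL1 KD cells the count of 0 became 3 with DESeq2 (both ways) and with replicates 2 and 3 alone, 1 without a filter on low counts, 4 with the block, 5 with the block and GC content offsets, and 0 to 2 with a library left out. In AF9 KD cells the count of 12 became 5 with GC content offsets (alone or with the block), 27 without a fold change threshold and 2 when changes had to reach 2-fold, and it was 8 to 12 with a library left out. The AF9 libraries share only a number (correlation 0.157), and the replicate block left both AF9 counts at 1 and 12.

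Signs turned for these log2 fold changes in the MLL1 experiment, none of them past the test. Leaving out a library gave -0.25 to 0.09 for TFRC, -0.22 to 0.32 for TFR2, -0.18 to 0.28 for FTH1, -0.16 to 0.12 for SLC11A2 and -0.25 to 0.06 for SLC40A1. SLC11A2 was 0.00 with DESeq2 and with its size factors and 0.01 with the block, and FTL was -0.00 in replicates 2 and 3. In the AF9 experiment TFR2 was -0.03 with GC content offsets and -0.02 with the block as well, HMOX1 -0.09 and -0.08, IREB2 0.09 in both and 0.01 with total counts, and SLC25A37 -0.12 to 0.16 with a library left out. The difference of effects of TFR2 was -0.08 with GC content offsets, with and without the block, and that of FTH1 was -0.39 to 0.07 with a library left out. The causes were not tested. HMOX1 rested on the fewest counts, 27 to 69 per library.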
